A study of Mus musculus with 15 samples.

Results

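The genes of sterol and fatty acid synthesis were followed across mouse hepatocytes in culture and after isolation. They were 31 named genes, found by the gene name of each array probe, with Msmo1 also looked for under its older name Sc4mol. All 31 were on the array, out of 27343 named genes, and 61 probes carried them. The sterol arm held 19 genes, the fatty acid arm 9 and the regulators 3, and the arms were described separately. RNA was hybridised to 15 1-colour Agilent arrays. mHep, taken here to be expandable hepatocytes grown for 21 days in differentiation medium, filled 7 arrays. eHep, the same kind of cells grown for 21 days in expansion medium, also filled 7 arrays, and primary hepatocytes from C57B6 mice, isolated by two-step collagenase perfusion, filled 1 array. What the name mHep stands for was not written out in the labels. The cultured cells came from 3 mice: C57B6-No1 with 3 arrays per medium, 129S1-No1 with 3 arrays per medium and 129S1-No2 with 1 array per medium. No genotype other than the strain was given. For 129S1-No2 the labels of the mHep array were in conflict, since its source name said eHep, and the title decided its group.

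Cells make cholesterol from acetyl-CoA through mevalonate, squalene and lanosterol, and they make fatty acids from cytosolic acetyl-CoA through malonyl-CoA. SREBP transcription factors, encoded by Srebf1 and Srebf2, are carried out of the endoplasmic reticulum by the sterol sensor Scap when sterols are scarce, and SREBP-2 is best known for the sterol genes while SREBP-1c is best known for the fatty acid genes. The liver is a main site of both pathways, and in hepatocytes the fatty acid genes also follow insulin, carbohydrate and the sterol receptors LXR.

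Levels are log2 signals minus the 75th percentile of their own array, so a level of 0 is a bright probe, and levels of different probes were not compared with each other. Well above background were 48.77% to 61.85% of probes in culture and 36.25% on the primary array. Hepatocyte markers were present in mHep, where 7 of 8 were well above background on all arrays, and 6 of 8 rose over eHep. In eHep, 2 of the 8 (Ttr and Cps1) were well above background on no array and only 2 on all, so their differences are bounds, and Ttr was at least 55.9-fold higher in mHep. On all 7 mHep arrays each of the 8 still lay below the primary array, and the median log2 difference was -4.82. Of the dividing-cell genes, 2 of 6 fell in mHep against eHep, with a median of -2.66. Of 5 fat cell markers, Adipoq, Lep and Plin1 were not well above background on any array. The other 2, Fabp4 and Cidec, were well above background on all 7 mHep arrays and higher in mHep in all 3 mice, by 4.76 and 2.62 on average, without passing the test (limma adjusted p = 0.0936 and 0.216). The log2 of the summed signal of all 5 lay between 2.05 and 5.33 in mHep and between -0.85 and 2.18 in eHep, with 0.71 on the primary array. Of 6 macrophage markers, 3 (Cd14, Cd68 and Csf1r) were well above background on all 14 cultured arrays, while the Kupffer cell marker Clec4f was so on the primary array alone. The macrophage sum lay between 4.91 and 7.48 in mHep and between 2.46 and 5.62 in eHep, with 2.10 on the primary array. The brightest probe weighs most in such a sum. Cd14 alone lay between 4.90 and 7.48 in mHep and between 2.31 and 5.53 in eHep, with -1.11 on the primary array. Clec4f, Marco and Csf1r read lower on average in both media than on the primary array, and Cd14 and Cd68 higher. Of 6 endothelial markers, Stab2 was well above background on all cultured arrays and Cdh5 on the primary array alone. The endothelial sum lay between -3.10 and -1.15 in mHep and between -3.91 and -1.14 in eHep, with 1.66 on the primary array. The part of these cells in the results below was not tested. In bulk RNA, fewer cells of a type and less RNA per cell cannot be told apart.

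In mHep against eHep, the sterol arm lay mostly above 0 by a small step, and Acat2 rose. Of the 19 genes, 17 had a positive log2 difference, with a median of 0.65 against -0.10 over all 14596 genes tested, and 1 passed the test, where 1.38% of all genes tested rose and 0.452% fell (limma on mouse means with mouse as a block, Benjamini-Hochberg adjusted p below 0.05). The median was 0.54 in C57B6-No1, 0.52 in 129S1-No1 and 0.83 in 129S1-No2, and 14 of the 19 genes were higher in mHep in all 3 mice, as were 14.6% of all genes tested. Without 129S1-No2, whose mHep label was in conflict, the median was 0.44. The scan moved with the size of this step. The earlier scan held both arrays of 129S1-No2, array 3 of each medium of C57B6-No1 and the primary array, and the median was 1.17 within it and 0.37 within the later scan.

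Acat2 encodes the cytosolic thiolase that joins acetyl-CoA units in the first step of the pathway. Its level in mHep was 3.06, 1.76 and 0.64 on the arrays of C57B6-No1, 4.79, 3.15 and 3.91 on those of 129S1-No1 and 1.14 on that of 129S1-No2. In eHep it was -0.46, -0.40 and -2.38 in C57B6-No1, 0.69, 0.92 and 1.02 in 129S1-No1 and -2.78 in 129S1-No2. Within each mouse every mHep array lay above every eHep array, while across mice the lowest mHep array lay below the highest eHep arrays. Acat2 was 9.82-fold higher in mHep (log2 difference 3.30 ± 0.41 SE, limma adjusted p = 0.0247, n = 3 mice), by 2.90 in C57B6-No1, 3.07 in 129S1-No1 and 3.92 in 129S1-No2. Without the mouse block the adjusted p was 0.442, and the mouse means of eHep alone lay between -2.78 and 0.88. Its probe lay on chromosome 17 from 13136497 to 13136556 on the minus strand in the mm9 build.

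The genes that bring the pathway to farnesyl diphosphate had no common difference. Hmgcs1, the cytosolic HMG-CoA synthase, ranged from 3.59 to 4.80 with a median of 3.97 on mHep arrays and from 2.50 to 4.0 with a median of 2.99 on eHep arrays. By this probe, its brightest, the difference was near the same size in every mouse (0.84 in C57B6-No1, 0.80 in 129S1-No1 and 1.09 in 129S1-No2). It did not pass (0.91 ± 0.37, limma adjusted p = 0.334). Another Hmgcs1 probe, well above background on all 15 arrays, gave 0.81 in C57B6-No1, -0.31 in 129S1-No1 and 1.14 in 129S1-No2. Idi1, the isopentenyl diphosphate isomerase, had a difference of 0.64 ± 0.40 (limma adjusted p = 0.517). Mvk, Mvd and Fdps, which encode mevalonate kinase, the diphosphate decarboxylase and farnesyl diphosphate synthase, had differences of -0.16, -0.15 and 0.04, and each was negative in 129S1-No1 and positive in the other mice. Mvd showed this most widely, at 0.33 in C57B6-No1 and 0.62 in 129S1-No2, with -1.41 in 129S1-No1. Pmvk, the phosphomevalonate kinase next to Mvd in the pathway, had the same split, at 0.54 in C57B6-No1 and 0.63 in 129S1-No2, with -0.45 in 129S1-No1.

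From squalene to cholesterol the differences were positive for every gene and none passed. Sqle, squalene epoxidase, stood at 0.63 ± 0.41, Fdft1, squalene synthase, at 0.73 ± 0.46, and Cyp51, the lanosterol demethylase, at 0.25 ± 0.41. The later enzymes Msmo1, Nsdhl, Hsd17b7, Ebp, Sc5d and Dhcr7 lay between 0.47 and 0.72. Lss, lanosterol synthase, had mHep arrays between 0.90 and 2.07 and eHep arrays between -0.09 and 0.88, ranges that did not overlap, with a difference of 1.05 ± 0.38 (limma adjusted p = 0.283). That probe was matched to an Ensembl transcript, and the other 2 Lss probes, matched to the RefSeq transcript, had differences of -0.09 and -0.16, so the probes of Lss disagreed. Stard4, a cholesterol carrier of the cytosol, disagreed in the same way, with 0.92 for the brightest probe and -0.13 and -0.26 for the others.

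Insig1 encodes the protein that holds Scap in the endoplasmic reticulum and is itself a target of SREBP. Its level was 0.89, 0.76 and 0.08 in mHep of C57B6-No1 and -0.51, -0.33 and -3.06 in eHep of that mouse. It ranged from 0.21 to 0.62 in mHep and from -0.24 to -0.02 in eHep of 129S1-No1, and stood at -0.76 and -2.08 in mHep and eHep of 129S1-No2. Every mHep array lay above every eHep array of the same mouse, and the difference of 1.24 ± 0.43 did not pass (limma adjusted p = 0.264). It passed when arrays were taken as samples with mouse and slide as blocks (1.93, limma adjusted p = 0.0283), and within the earlier scan (2.22, adjusted p = 0.0240) and the later scan (0.81, adjusted p = 0.00518). These fits take repeat arrays of a mouse as samples, and 20.6%, 10.4% and 50.3% of all genes passed in them, in that order, against 1.84% on mouse means.

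**Figure D1:**
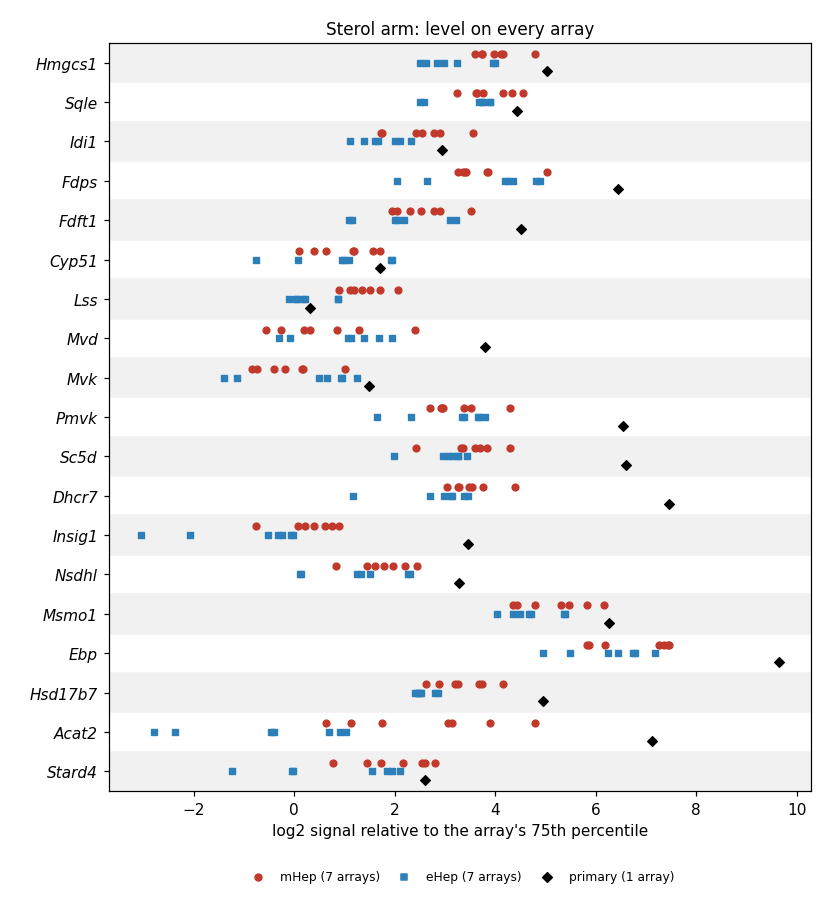
Levels of the 19 sterol arm genes on every array, as log2 signal minus the 75th percentile of its array (x axis), with mHep as circles, eHep as squares and the primary array as a diamond. Rows hold different probes and are not to be compared with each other. Acat2 shows the widest step, with mHep between 0.64 and 4.79, eHep between -2.78 and 1.02 and the primary array at 7.13.

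Promoters of 3 sterol arm genes are shown as the reference genome has them. They were chosen because Hmgcs1 had a like difference in all mice by its brightest probe, Acat2 rose and Hsd17b7 differed between mice. Each is the 250 bases before the RefSeq transcription start in GRCm38.p6, on the strand of the gene, 5′ to 3′. Capitals mark the CCAAT box, CCAAT or its reverse complement ATTGG, to which the factor NF-Y is known to bind beside SREBP, and the sterol response element, searched as TCACNCCAC on both strands. The 2 motifs did not overlap in the windows shown.
Hmgcs1, chr13:119690101-119690350, plus strand: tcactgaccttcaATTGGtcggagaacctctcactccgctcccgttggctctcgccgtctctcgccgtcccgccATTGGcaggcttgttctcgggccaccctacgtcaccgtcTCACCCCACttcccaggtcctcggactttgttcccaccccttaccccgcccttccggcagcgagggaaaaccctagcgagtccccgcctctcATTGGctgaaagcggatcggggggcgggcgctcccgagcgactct
Acat2, chr17:12960726-12960975, minus strand: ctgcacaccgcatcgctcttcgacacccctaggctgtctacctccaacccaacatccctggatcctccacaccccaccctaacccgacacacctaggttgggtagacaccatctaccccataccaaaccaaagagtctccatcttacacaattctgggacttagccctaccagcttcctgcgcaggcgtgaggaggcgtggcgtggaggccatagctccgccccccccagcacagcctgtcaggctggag
Hsd17b7, chr1:169969206-169969455, minus strand: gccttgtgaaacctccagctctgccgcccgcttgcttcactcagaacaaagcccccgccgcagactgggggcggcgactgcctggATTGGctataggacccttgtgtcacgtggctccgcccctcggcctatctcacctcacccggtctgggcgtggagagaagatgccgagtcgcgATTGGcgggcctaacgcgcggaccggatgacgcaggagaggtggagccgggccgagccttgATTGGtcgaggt
The Hmgcs1 window held 3 CCAAT boxes and 1 sterol response element, the Hsd17b7 window 3 CCAAT boxes, and the Acat2 window neither set of letters. RefSeq promoters were at hand for 26 of the 31 genes, and Sqle, Fdps, Fdft1, Stard4 and Scd1 were not matched. A CCAAT box lay in 14 of 18 promoters of the sterol arm (77.8%) and in 5 of 9 of the fatty acid arm (55.6%), against 33.8% of all 32851 promoters over the same length. The sterol response element lay in 1 of the 33 promoters of the members and in 1.05% of all promoters. A match describes these letters only.

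In mHep against eHep the fatty acid arm had no common direction. Of 9 genes, 8 were tested with limma and 0 passed, where 1.38% of all genes rose and 0.452% fell, and 1 of them was higher at an unadjusted p below 0.05. The median difference was 0.52, and by mouse it was -0.23 in C57B6-No1, 1.13 in 129S1-No1 and -0.01 in 129S1-No2. Without 129S1-No1 the median was -0.03. Acacb, which makes the malonyl-CoA that restrains fatty acid oxidation at mitochondria, was the tested gene of the arm that was higher in mHep in all 3 mice, by 1.60, 0.63 and 1.51 (mean 1.25 ± 0.41, limma adjusted p = 0.235), and 2 of its 7 eHep arrays were not well above background. Fasn, the fatty acid synthase, was lower in mHep in all 3 mice by its brightest probe. The differences were -1.23 in C57B6-No1, -0.63 in 129S1-No1 and -0.52 in 129S1-No2, and Fasn did not pass (-0.79 ± 0.39, limma adjusted p = 0.414). Its levels ran from 5.05 to 6.79 on mHep arrays (median 6.02). On eHep arrays they ran from 5.57 to 7.91 (median 6.73), and the ranges overlapped. Its other probe had a difference of -0.09, with -0.45 in C57B6-No1, 0.69 in 129S1-No1 and -0.50 in 129S1-No2. Acly, which splits citrate into cytosolic acetyl-CoA, stood at -0.10 ± 0.37, and Me1, malic enzyme, which supplies NADPH, at 0.08 ± 0.44. Thrsp was not tested, since 129S1-No1 was the only mouse with every array of a medium well above background. Over all mice Thrsp was well above background on 5 of 7 mHep arrays and 3 of 7 eHep arrays.

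**Figure D2:**
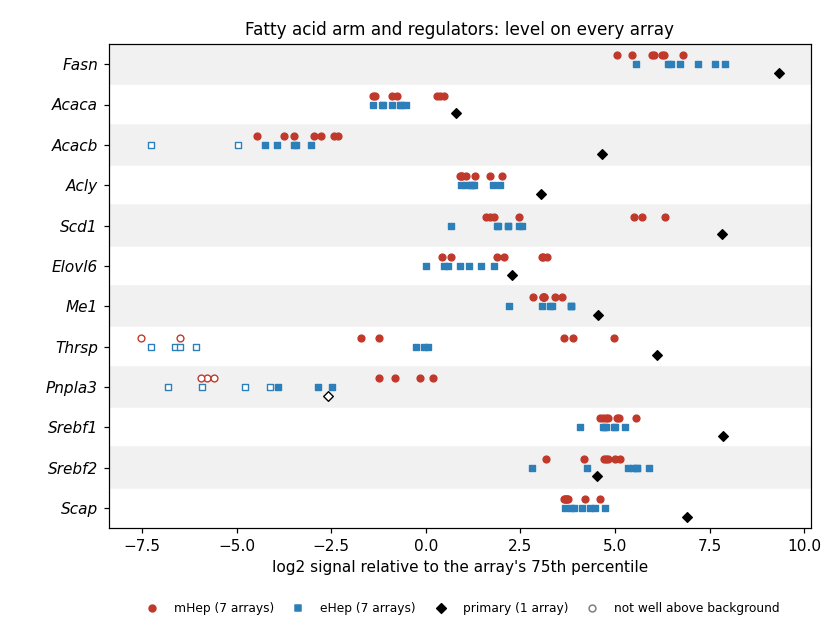
Levels of the 9 fatty acid arm genes and the 3 regulators on every array, as log2 signal minus the 75th percentile of its array (x axis), with mHep as circles, eHep as squares, the primary array as a diamond and open symbols for readings not well above background. Scd1 shows 3 mHep arrays between 5.51 and 6.31, all of 129S1-No1, apart from the other 4 between 1.59 and 2.46.

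The differences between mice were tested in the 12 arrays of C57B6-No1 and 129S1-No1, as the change in C57B6-No1 minus the change in 129S1-No1. With 1 mouse per strain, strain and mouse cannot be told apart. The labels do not say whether the 3 arrays of a mouse came from separate cultures. These p-values therefore measure the spread between arrays of 1 mouse, which may be technical. All eHep arrays of 129S1-No1 were on slide 3 and all its mHep arrays on slide 4. In that mouse, and so in the differences between the mice, medium and slide cannot be told apart. The same holds for 129S1-No2, with eHep on slide 2 and mHep on slide 1. In C57B6-No1 array 3 of each medium shared slide 2, but arrays 1 and 2 did not share a slide between media. They were on slides 3 and 4 in eHep and on slide 5 in mHep. The differences on mouse means, that of Acat2 among them, rest on these same slides. Of the fatty acid arm 4 of 9 genes, Pnpla3 among them, had a smaller change in C57B6-No1, where 6.30% of all 15742 genes tested did, and 0 a larger one, where 10.3% did (limma, adjusted p below 0.05). At an unadjusted p below 0.05 the counts were 4 and 0. Pnpla3 was tested through the mHep arrays of 129S1-No1, where it is bright, and was mostly not well above background in C57B6-No1. Of the sterol arm 1 of 19 had a smaller change and 0 a larger one, and 1 and 1 at an unadjusted p below 0.05.

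Scd1 encodes the desaturase that makes oleate and palmitoleate in the liver. In C57B6-No1 its levels were 1.59, 1.71 and 2.46 in mHep and 1.87, 1.90 and 0.67 in eHep. In 129S1-No1 they were 6.31, 5.72 and 5.51 in mHep and 2.46, 2.18 and 2.54 in eHep. The mHep and eHep arrays of C57B6-No1 overlapped, while those of 129S1-No1 lay far apart. The change was 0.44 ± 0.37 in C57B6-No1 and 3.46 ± 0.37 in 129S1-No1, and the changes differed by -3.02 ± 0.53 (limma adjusted p = 0.00408). In 129S1-No2, the other mouse of that strain, the change was -0.39 with 1.80 in mHep and 2.19 in eHep.

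Elovl6, which lengthens palmitate to stearate, had the same split. Its levels in mHep were 0.43, 2.08 and 1.88 in C57B6-No1 and 3.21, 3.10 and 3.08 in 129S1-No1, and in eHep 1.46, 1.14 and 0.91 in C57B6-No1 and 0.47, 0.60 and 0.01 in 129S1-No1. The changes were 0.30 ± 0.38 in C57B6-No1 and 2.77 ± 0.38 in 129S1-No1, and they differed by -2.48 ± 0.54 (limma adjusted p = 0.0125). With normexp background correction that adjusted p was 0.0748. In 129S1-No2 the change was -1.13, opposite to 129S1-No1.

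Acaca encodes the carboxylase that makes malonyl-CoA for fatty acid synthesis. It fell by 0.59 in C57B6-No1 (SE 0.20, limma adjusted p = 0.0493) and rose by 1.62 ± 0.20 in 129S1-No1 (adjusted p = 0.0001295). Its mHep arrays lay at -1.39, -1.33 and -0.89 in C57B6-No1 and at 0.48, 0.39 and 0.29 in 129S1-No1, and its eHep arrays at -0.66, -0.51 and -0.68 in C57B6-No1 and at -1.15, -1.41 and -1.14 in 129S1-No1. No array of one medium lay within the range of the other in either mouse. The changes differed by -2.21 ± 0.28 (adjusted p = 0.000619), and the change in 129S1-No2 was 0.14. The fall in C57B6-No1 did not pass in 11 of 12 fits that left out 1 array, over which it ranged between -0.74 and -0.50, while the difference between the mice passed in all 12.

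Pnpla3, a lipid droplet acyltransferase and lipase, was not well above background on any mHep array of C57B6-No1 nor on 2 of its 3 eHep arrays. In 129S1-No1 it was at 0.20, -0.15 and -0.81 in mHep and at -4.13, -4.79 and -3.89 in eHep, where 2 of the 3 eHep arrays were not well above background. It was tested through the mHep arrays of 129S1-No1, where it is bright, so its differences are measured against readings that are mostly background. As measured, the change was 4.02 ± 0.86 in 129S1-No1 (limma adjusted p = 0.00435) and the difference between the mice was -4.73 ± 1.22 (adjusted p = 0.0252). With dim readings raised to the limit of background, these were 3.64 and -4.16. No change in C57B6-No1 could be measured. The difference between the mice did not pass without array 1 or 2 of 129S1-No1 in eHep (adjusted p = 0.0538 and 0.0626) or in mHep (0.0627 and 0.0556). In 129S1-No2 Pnpla3 was at -1.24 in mHep and -2.86 in eHep. Thrsp, the lipogenic protein Spot 14, passed in both mice. In 129S1-No1 it was at 4.98, 3.88 and 3.66 in mHep and at -0.27, -0.04 and 0.06 in eHep (4.25 ± 1.09, adjusted p = 0.0104). In C57B6-No1 it was at -1.24 and -1.71 on 2 mHep arrays and not well above background on the third nor on any eHep array, which gave a rise of at least 2.75-fold (log2 difference as measured 3.50 ± 1.09, adjusted p = 0.0378). With dim readings raised to the background limit the difference in C57B6-No1 was 1.84 (adjusted p = 0.140). That call was lost in 10 of the 12 fits without 1 array (differences between 2.54 and 5.17), and Thrsp was not well above background in 129S1-No2 in either medium.

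Promoters of Elovl6 and Pnpla3, whose changes passed the test between the mice, are shown in the same way. For Pnpla3 no change in C57B6-No1 could be measured. The Elovl6 window held no CCAAT box and the Pnpla3 window held 1.
Elovl6, chr3:129532136-129532385, plus strand: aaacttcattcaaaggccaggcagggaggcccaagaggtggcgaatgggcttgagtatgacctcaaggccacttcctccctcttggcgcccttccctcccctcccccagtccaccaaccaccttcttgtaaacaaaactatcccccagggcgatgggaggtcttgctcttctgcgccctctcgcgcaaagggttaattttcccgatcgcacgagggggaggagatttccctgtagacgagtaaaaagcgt
Pnpla3, chr15:84167566-84167815, plus strand: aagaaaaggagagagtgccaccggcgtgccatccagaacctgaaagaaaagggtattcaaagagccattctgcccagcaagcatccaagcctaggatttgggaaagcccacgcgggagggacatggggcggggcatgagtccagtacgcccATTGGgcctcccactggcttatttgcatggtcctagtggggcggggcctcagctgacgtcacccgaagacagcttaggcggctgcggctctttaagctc
Both windows come from the reference genome, and no 129S1 sequence was read.

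Within C57B6-No1 the sterol arm had 4 rises and 0 falls among 19 (limma; 6 and 0 at an unadjusted p below 0.05), where 11.8% of all genes rose and 13.4% fell. They were Acat2 (2.90 ± 0.67), Insig1 (1.87 ± 0.59), Stard4 (1.74 ± 0.36) and Lss (0.89 ± 0.29), with limma adjusted p from 0.00469 to 0.0454. Every one of the 19 differences was above 0. The direction of Lss turns with the probe, since its other 2 probes gave -0.41 and -0.43 in this mouse, and -0.58 and -0.69 in 129S1-No1. Of the 12 fits without 1 array, 8 lost the call of Insig1 (differences between 0.99 and 2.36) and 11 that of Lss (0.62 to 1.06). Without the earlier scan Lss stood at 0.40. The mean of all probes left Stard4 at 0.79 (adjusted p = 0.248). In the fatty acid arm Thrsp rose and Acaca fell, and the median of the 9 was 0.02.

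Within 129S1-No1 the sterol arm had 4 rises and 1 fall, where 17.3% of all genes rose and 27.2% fell, and the fatty acid arm had 5 rises and 0 falls (limma; also 5 and 0 at an unadjusted p below 0.05). In the sterol arm, by the brightest probe, Acat2 (3.07 ± 0.67), Hsd17b7 (1.41 ± 0.23), Lss (1.39 ± 0.29) and Sc5d (0.76 ± 0.23) rose and Mvd fell by 1.41 (SE 0.53), with limma adjusted p from 0.000957 to 0.0498. The call of Mvd was lost in 8 of the 12 fits without 1 array (differences between -1.61 and -1.23), and that of Sc5d in 4 of them (0.57 to 0.91). The other Sc5d probe gave 3.11 in this mouse. Hsd17b7, a sterol ketone reductase, was at 4.17, 3.74 and 3.68 in mHep and 2.44, 2.51 and 2.41 in eHep of 129S1-No1. In C57B6-No1 it was at 2.62, 3.27 and 3.20 in mHep and 2.86, 2.80 and 2.49 in eHep, which overlapped. The changes differed by -1.10 ± 0.33 (adjusted p = 0.0440), a call that was lost in 9 of 12 fits without 1 array (differences between -1.22 and -0.89). In the fatty acid arm Thrsp, Pnpla3, Scd1, Elovl6 and Acaca rose, and each call passed in all 12 fits without 1 array. Medium and slide moved together in this mouse, so for none of its calls can they be told apart. Cidec and Fabp4, genes of fat storage that were also listed as fat cell markers, were 2.65 and 8.06 higher in mHep in this mouse, and their part in the result was not tested.

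**Figure D3:**
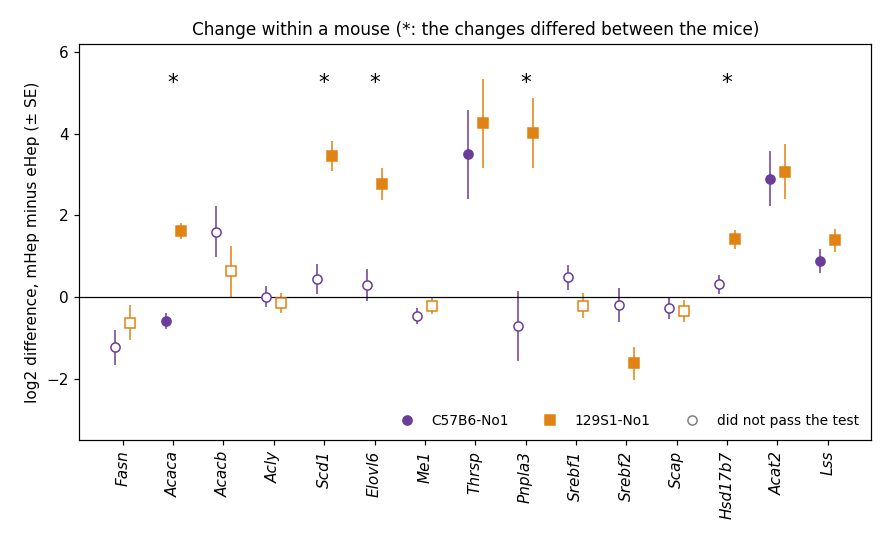
Change within a mouse (y axis, log2 mHep minus eHep ± SE, 3 arrays per medium) for C57B6-No1 (circles) and 129S1-No1 (squares), filled where the change passed the test. Stars mark genes whose changes passed the test for a difference between the mice, which are Acaca, Scd1, Elovl6, Pnpla3 and Hsd17b7. Pnpla3 was mostly not well above background in C57B6-No1, so its change there could not be measured.

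Against primary cells most members of both arms were lower in culture. Of the sterol arm, 18 of 19 differences were below 0 in mHep and 19 of 19 in eHep. The primary array was single, so the fit gives it the spread of the cultured mouse means, and nothing here measures how primary preparations vary. A gene was called at an adjusted p below 0.05 and a log2 difference of at least 1. In mHep, 3 of 19 sterol genes fell (Dhcr7, Pmvk and Sc5d), 2 of 9 fatty acid genes (Acacb and Fasn) and 2 of 3 regulators (Srebf1 and Scap), where 6.32% of 14695 genes fell and 4.29% rose. In eHep, 9 of 19 sterol genes fell, 2 of 8 fatty acid genes (Acacb and Scd1) and 2 of 3 regulators (Srebf1 and Scap), where 10.6% of 14356 genes fell and 6.53% rose. By limma 0 members rose in either medium, and 0 at an unadjusted p below 0.05. Biliary and progenitor markers moved with these comparisons. All 6 were well above background on every mHep array and 5 on every eHep array, against 3 on the primary array. The log2 of their summed signal lay between 7.24 and 9.74 in mHep and between 8.08 and 9.28 in eHep, with 2.89 on the primary array. Krt7 and Krt19, keratins of bile duct cells, rose in both media, at least 906-fold and 264-fold in mHep and at least 511-fold and 401-fold in eHep. Their part in the results was not tested. The mHep and eHep comparisons share the primary array, so their values are given side by side only.

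The median of the sterol arm was -1.77 in mHep and -2.39 in eHep, and that of the fatty acid arm -1.87 in mHep and -2.27 in eHep, relative to -0.29 in mHep and -0.13 in eHep over all genes tested. Quantile normalization moved the medians over all genes to 0.22 in mHep and 0.29 in eHep, and the sterol arm then stood at -1.0 in mHep and -1.56 in eHep. All 7 mHep arrays lay below the primary array for 14 of 19 sterol genes and 7 of 9 fatty acid genes, as for 37.3% of all genes tested. All 7 eHep arrays did so for 17 of 19 sterol genes and 8 of 8 fatty acid genes tested, as for 34.1% of all genes tested. Thrsp and Pnpla3, dark on some cultured arrays, are in these numbers where tested. Without them 6 of 7 fatty acid genes lay below the primary array in mHep and 7 of 7 in eHep, with medians of -1.87 in mHep and -1.77 in eHep.

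Dhcr7, which reduces the last precursor to cholesterol, lay between 3.04 and 4.40 on mHep arrays (median 3.48), between 1.17 and 3.47 on eHep arrays (median 3.13) and at 7.46 on the primary array. No cultured array came near the primary level. It was 15.2-fold lower in mHep (log2 difference -3.93 ± 0.53, limma adjusted p = 0.00679) and 25.0-fold lower in eHep (-4.64 ± 0.53, adjusted p = 0.00327), and its other probe gave -3.73 in mHep. Pmvk stood at -3.37 ± 0.64 in mHep and -3.61 ± 0.64 in eHep. Sc5d, the sterol desaturase before Dhcr7, stood at -3.34 ± 0.81 in mHep and -3.81 ± 0.80 in eHep, but its other probe gave -1.07 in mHep. Acat2 lay between 0.64 and 4.79 on mHep arrays, between -2.78 and 1.02 on eHep arrays and at 7.13 on the primary array. It was 279-fold lower in eHep (-8.12 ± 1.55, adjusted p = 0.0159), and in mHep the difference of -4.83 ± 1.55 did not pass (adjusted p = 0.0975). Insig1 (-4.63 ± 0.90) and Ebp (-3.67 ± 0.88) fell in eHep, as did Fdps, Fdft1 and Hsd17b7 by 2.39 to 2.82 on the log2 scale. The other sterol members did not pass in either medium. By their brightest probes, Sqle, Idi1, Cyp51 and Stard4 had differences between -0.93 and -0.56 in mHep. These were the differences nearest to 0 among those below it in the arm. Other probes gave -1.86 for Idi1, -0.36 and -1.77 for Cyp51, and -1.97 and -1.64 for Stard4. Lss was at 0.98, with -1.68 and -1.98 from its other probes.

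Acacb had the widest gap of the fatty acid arm among the calls. It lay between -4.47 and -2.32 on mHep arrays, between -7.27 and -3.02 on eHep arrays and at 4.65 on the primary array. It was 201-fold lower in mHep (-7.65 ± 0.99, limma adjusted p = 0.00584). In eHep the difference as measured was -8.89 ± 0.98 (adjusted p = 0.00301), with 2 of 3 arrays of C57B6-No1 not well above background, and -8.59 with those readings raised to the background limit. Both calls passed in every alternative fitted. Fasn was at 9.34 on the primary array, above all cultured arrays, and stood at -3.57 ± 0.84 in mHep (adjusted p = 0.0424) and -2.77 ± 0.84 in eHep (adjusted p = 0.0670). Scd1 was at 7.83 on the primary array and at -4.64 ± 1.55 in mHep (adjusted p = 0.108) and -5.81 ± 1.55 in eHep (adjusted p = 0.0470). Its mHep arrays of 129S1-No1 came nearest, at up to 6.31. Elovl6 was at 2.28 on the primary array, below all 3 mHep arrays of 129S1-No1, with differences of -0.53 in mHep and -1.17 in eHep. Thrsp was at 6.11 on the primary array, through which it was tested, and was not well above background on 2 of 7 mHep and 4 of 7 eHep arrays. Its differences as measured, -8.28 ± 4.43 in mHep and -10.52 ± 4.42 in eHep, did not pass, and with dim readings raised to the background limit they were -7.38 and -9.65. Pnpla3 was not well above background on the primary array and was not tested in eHep. Me1 stood at -1.39 in mHep, but its other probe gave 0.85.

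Of the 7 calls in mHep against primary cells, 6 were lost without C57B6-No1, with limma adjusted p between 0.0876 and 0.205, and that of Acacb was not. Of the 13 calls in eHep, 11 were lost without that mouse, and those of Dhcr7 and Acacb were not. Quantile normalization left 3 of the 7 calls in mHep and 5 of the 13 in eHep. The calls it ended in both media were those of Sc5d, Srebf1 and Scap, with adjusted p between 0.0556 and 0.201. Within the earlier scan, which held the primary array, and with arrays as samples, 11 of 19 sterol genes and 5 of 9 fatty acid genes were called in mHep and 15 of 19 and 6 in eHep, where 28.4% of all genes were called in mHep and 39.7% in eHep.

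**Figure D4:**
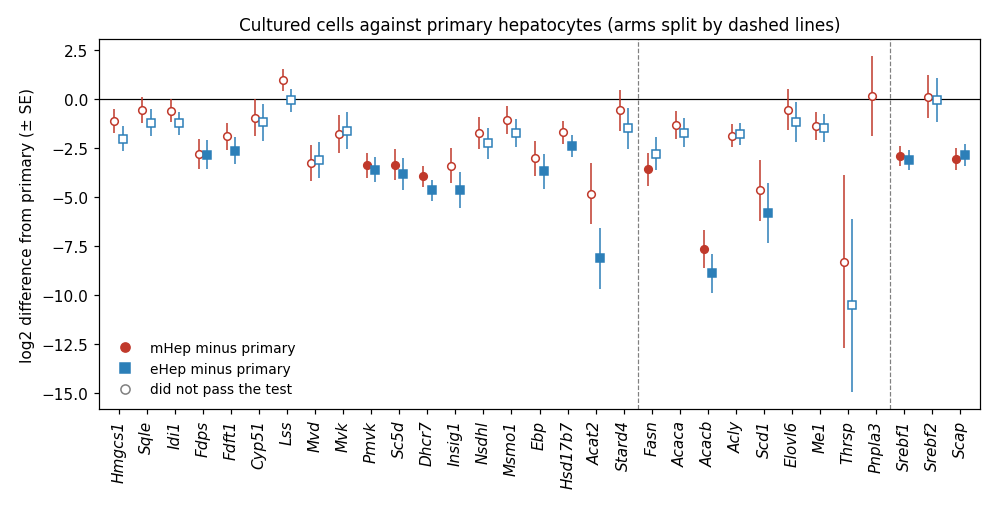
Difference of mHep (circles) and eHep (squares) from the primary array (y axis, log2 ± SE, 3 mouse means against 1 array) for every member tested, filled where the test was passed. Acacb, at -7.65 in mHep and -8.89 in eHep, and Acat2, at -8.12 in eHep, are the lowest of the filled points.

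Of the 3 regulators, 0 passed between mHep and eHep on mouse means (limma), and 0 at an unadjusted p below 0.05. Srebf1 lay between 4.62 and 5.56 on mHep arrays, between 4.09 and 5.26 on eHep arrays and at 7.86 on the primary array, with a difference of 0.20 ± 0.39 between the media (limma adjusted p = 0.861). It was 7.41-fold lower in mHep than in primary cells (-2.89 ± 0.50, adjusted p = 0.0163) and 8.53-fold lower in eHep (-3.09 ± 0.50, adjusted p = 0.00882). The probe does not separate SREBP-1a from SREBP-1c. Scap stood at -3.05 ± 0.56 in mHep (adjusted p = 0.0194) and -2.85 ± 0.56 in eHep (adjusted p = 0.0170). Srebf2 was near its primary level in both media by its brightest probe, with 0.14 ± 1.12 in mHep and -0.04 ± 1.12 in eHep. Between the media the mice differed. Srebf2 had a difference of -0.19 in C57B6-No1, fell by 1.63 in 129S1-No1 (SE 0.41, adjusted p = 0.00995) and stood at 2.33 in 129S1-No2, where the eHep array was at 2.80. Its other 3 probes gave 0.20, 0.37 and -0.08 in that mouse, so the 2.33 was a value of 1 probe, and in 129S1-No1 they gave -1.17, -1.88 and -0.99. The authors' value table left that fall at -1.09 (adjusted p = 0.0501).

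**Figure D5:**
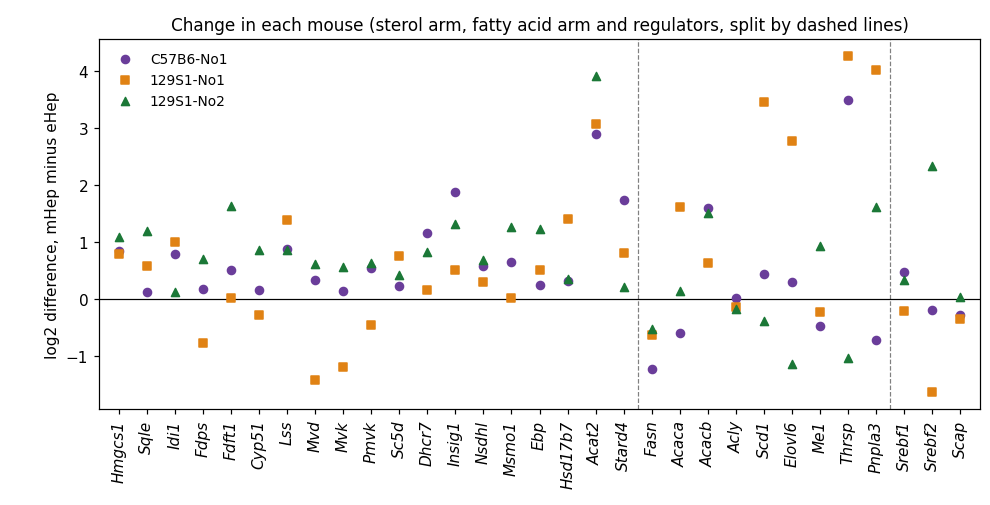
Change in each mouse (y axis, log2 mHep minus eHep) for the 31 members, with C57B6-No1 as circles, 129S1-No1 as squares and 129S1-No2 as triangles. Acat2 lies between 2.90 and 3.92 in all 3 mice, while Scd1 and Elovl6 lie at 3.46 and 2.77 in 129S1-No1 and between -1.13 and 0.44 in the other mice.

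Other genes of the pathways were read from lists that hold no member. Of 9 further genes of sterol synthesis and its control, 8 were tested with limma and 0 passed between mHep and eHep, 2 of them higher at an unadjusted p below 0.05, with a median of -0.01. Among the widest were Tm7sf2, a sterol reductase (1.40 ± 0.39, limma adjusted p = 0.172), Insig2, the partner of Insig1 (1.36 ± 0.41, adjusted p = 0.201), and Lbr, which has a sterol reductase part (-0.95). Tm7sf2 fell against primary cells in both media, by 4.17 in mHep and by 5.57 in eHep on the log2 scale. Of 18 further genes of fatty acid and triglyceride synthesis 1 passed, where 1.38% of all genes rose and 0.452% fell. Acss2, which makes acetyl-CoA from acetate, was 2.64 ± 0.40 higher in mHep (adjusted p = 0.0385), with mHep arrays between -0.51 and 0.82 and eHep arrays between -3.08 and -1.85, and it was higher in all 3 mice, by 2.11 to 2.93. It was still lower than the primary level of 4.76 in both media. Dgat2, the last enzyme of triglyceride synthesis (2.34 ± 0.47, adjusted p = 0.0806), Mlxipl, which encodes ChREBP (1.74), and Lpin1 (1.51) did not pass.

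Of 9 genes of sterol export, storage and LXR signalling, 8 were tested and 1 passed, beside the same shares over all genes. Abcg5, which pumps sterols into bile with Abcg8, was 5.71 ± 0.73 higher in mHep (limma adjusted p = 0.0275), and its 3 eHep arrays of C57B6-No1 were not well above background. It was at least 46.1-fold higher in mHep of that mouse, and the difference was 7.05 in 129S1-No1 and 3.54 in 129S1-No2. Abca1, the cholesterol exporter that LXR induces, had a difference as measured of 4.25 ± 0.73 (adjusted p = 0.0544), with 5 of 7 eHep arrays not well above background. It was at least 35.9-fold higher in mHep of 129S1-No1, whose eHep arrays were all dark. Soat1, which esterifies cholesterol, had a difference of -2.58 ± 0.53 (adjusted p = 0.0848), and Nr1h3, which encodes LXRα, had one of 1.49 ± 0.44 (adjusted p = 0.196). Scd2, the desaturase paralog of Scd1, was named after its values were seen. It lay between 6.31 and 7.09 on mHep arrays and between 5.68 and 7.27 on eHep arrays and was not well above background on the primary array, the opposite order to Scd1.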

How the data were processed

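Expression was measured on 15 arrays, 1 file each. The scans were Cy3 only and were processed in Agilent Feature Extraction, of which 2 versions, 10.7.1.1 and 10.7.3.1, were used, with mm9 probe positions, per the file headers. The intensity used was the processed signal, already corrected for background and not scaled between arrays, per the file headers. The authors also deposited log2 values for the same arrays. How these were made is not given in the sources used here, and they served as an alternative. They and quantile normalization called the same share of all genes against primary cells, 15.1% in mHep and 21.8% in eHep. These alternatives are therefore not separate checks. The number of arrays limits the precision, and no probe was saturated.

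Each array's log2 signals had its own 75th percentile subtracted. Spots of a probe were averaged without outlier spots, and the brightest probe stood for a gene. To be tested, a gene had to be well above background in 1 of the compared media, on every array of 2 or more of the 3 mice, or on the primary array. Within mice it had to be so on the 3 arrays of 1 mouse and medium. limma 3.58.1 (R 4.3.3, version 1.17.8 of data.table) gave p-values adjusted over all genes tested by Benjamini-Hochberg. Media were compared on 6 mouse means with mouse as a block, since the labels name the same mouse in both media. Deviations of a mouse in mHep and eHep correlated at 0.56 (C57B6-No1), 0.40 (129S1-No1) and 0.54 (129S1-No2), and those of different mice at 0.011 or less. They were deviations from the mean of the 3 mice, which by itself pulls different mice below 0 where the same mouse lies above it. Scan also moved partly with mouse, so these correlations cannot show that the pairing reflects the animal. The primary array was compared with the mouse means without a block.

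The members and lists were chosen with earlier results of these data known. Named genes are all members and, from each other list, up to 4 with the widest difference between the media, of which 1 is not reported here. Where a group was dark on all its arrays, the fold is against the higher of its reading and the lowest signal well above background. The fits were tested on simulated data. Alternatives covered normexp background with an offset of 50, other scalings, filters and probe rules, blocks for mouse, slide and scan, and leaving out arrays or mice. The fits within the earlier scan against primary cells, and without it within mice, were added after the data were seen. Figures were made in Python 3.11.15 (matplotlib 3.10.9, pandas 2.3.3). Promoters came from RefSeq on GRCm38.p6.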

Additional observations from a re-analysis of the deposited data

Results flagged for a closer look

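In 4 of 62 groups of 7 arrays 1 reading stood far from the others. The rule flags about 1 in 20 by chance where the 7 readings are independent. These arrays were repeats of 3 mice over an earlier and a later scan, so that rate need not hold here. Fdps was at 5.03 on array 1 of C57B6-No1 in mHep, where the next array was at 3.86. Sc5d was at 1.99 on the eHep array of 129S1-No2, with the next at 2.97. Dhcr7 was at 1.17 and Scd1 at 0.67 on array 3 of C57B6-No1 in eHep, with the next arrays at 2.70 and 1.87. The last 3 readings lay in the earlier scan, and the part of the scan was not tested.

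The changes of 5 members differed between C57B6-No1 and 129S1-No1 by limma's interaction test. They were smaller in C57B6-No1 by -1.100 for Hsd17b7, -2.205 for Acaca, -3.018 for Scd1, -2.475 for Elovl6 and, as measured, -4.730 for Pnpla3. Pnpla3 was not well above background on 5 of 6 arrays of C57B6-No1, so its change in that mouse could not be measured. Over all alternatives run, Scd1 stayed between -3.69 and -2.73 and Acaca between -2.48 and -1.58, with every adjusted p below 0.05.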

How the results depend on the processing

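Counts below are of members past the test and medians are log2 differences. Against primary cells the sterol median in mHep was -1.20 with normexp background, -1.18 with the percentile of probes well above background on all arrays, -1.0 by quantile normalization and -1.0 in the authors' value table. In eHep it was -1.64 with normexp, -1.56 by quantile normalization and in the authors' table, and -1.81 over all probes of a gene. The fatty acid median in eHep was -1.48 by quantile normalization and in the authors' table. Quantile normalization and the authors' table each left 4 sterol calls in eHep, 1 fatty acid call in each medium, 9 sterol calls within 129S1-No1 and 2 sterol calls between the mice. In both, 15.1% of all genes were called in mHep, 21.8% in eHep, 42.1% within 129S1-No1 and 18.8% between the mice. Normexp left 1 fatty acid call in mHep, 3 sterol calls within 129S1-No1, 0 fatty acid calls within C57B6-No1 and 0 sterol calls between the mice. Of all genes 6.79%, 23.3%, 9.77% and 3.87% were called there, in that order. The percentile of detected probes left 1 fatty acid call in eHep and 9 sterol calls within 129S1-No1. There 18.9% and 42.6% of all genes were called. With no filter there were 8 sterol calls in mHep against primary, 2 sterol and 0 fatty acid calls within C57B6-No1 and 0 sterol calls between the mice. The shares of all genes were 32.3%, 11.8% and 8.8%, in that order. The strict filter left 1 fatty acid call in eHep against primary and 3 within 129S1-No1, where 12% and 47.2% of all genes were called. The mean of all probes left 2 sterol calls and 1 fatty acid call within C57B6-No1, where 22.7% of all genes were called. Raising dim readings to the background limit left 0 fatty acid calls in that mouse, where 24.6% of all genes were called.

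Between mHep and eHep, the fit with no mouse block left 0 sterol calls. With 14 arrays, and mouse and slide as blocks, there were 6 sterol calls (median 0.84) and 1 fatty acid call, where 20.6% of all genes passed. The earlier scan alone gave 2 sterol calls (median 1.17) and 1 fatty acid call, and the later scan alone 8 (median 0.37) and 3, where 10.4% of all genes passed in the earlier scan and 50.3% in the later. Within the later scan Fdps was at -0.62 and Srebf2 at -1.24, opposite to their sign over all mice. The cause was not tested.

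With the C57B6 mouse alone against primary cells there were 5 sterol and 5 fatty acid calls in mHep (fatty acid median -3.20) and 4 fatty acid calls in eHep, where 27.8% and 34.7% of all genes were called in mHep and eHep. Within the earlier scan there were 11 and 5 calls in mHep and 15 and 6 in eHep (sterol median -3.15), where 28.4% and 39.7% of all genes were called. Scan as a block gave 8 sterol calls within 129S1-No1, 7 sterol and 4 fatty acid calls within C57B6-No1 and 4 sterol calls between the mice, where 65%, 38.7% and 39.6% of all genes passed, in that order. Without the earlier scan there were 11 sterol calls within 129S1-No1 and 5 between the mice, where 67.2% and 36.4% of all genes passed. Arrays of the same number in both media correlated between -0.136 and -0.049 in 129S1-No1. In C57B6-No1 they correlated at 0.586, -0.101 and 0.692, and arrays of different numbers at up to 0.713. Array 3 of both media of C57B6-No1 shared slide 2 and the earlier scan, so these values cannot show a pairing by number. Array number as a replicate block gave 1 fatty acid call within C57B6-No1 and 0 sterol calls between the mice. There 23.8% and 15.5% of all genes passed.

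Leaving out 1 array or mouse gave 1 to 6 sterol calls in eHep against primary and 0 to 4 in mHep, and 1 to 3 fatty acid calls in either. Of all genes, 4.67% to 18.8% were called in eHep and 1.22% to 11.6% in mHep. Within mice it gave 3 to 9 sterol calls in 129S1-No1, 2 to 5 sterol and 0 to 3 fatty acid calls in C57B6-No1, and 0 to 1 sterol calls between the mice. The share of all genes was 29.7% to 53.5%, 18.6% to 33.3% and 9.55% to 31.4%, in that order. The sterol median between mHep and eHep lay between 0.44 and 0.66. With 1 primary array and 3 mice, differences from primary cells rest on few samples.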
